A study of Mus musculus with 24 samples.

Results

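Long-term haematopoietic stem cells (LTHSC) carrying either of 2 Jak2 lines were set against LTHSC of another line, and the genes that moved the same way in both were sought. The comparison used 9 of the 24 libraries of the series, all sorted from bone marrow of C57BL/6N mice, with 3 libraries in each of 3 groups. VF is a Vav1-Cre line labelled V617F (replicates 1, 2 and 3), E12 is a Scl-Cre line labelled Exon12 (replicates 2, 4 and 11), and KI carries a knock-in of mouse Jak2 with Scl-Cre (replicates 1, 2 and 3). The labels give all of them tamoxifen on 5 days and a sort 12 weeks later. Each value of VF and E12 together is the average of the 2 group means with equal weight, so the contrast is this average minus KI. The series mentions strains with unmutated and with mutant JAK2, but no label marks the unmutated group. KI is used as the line to compare with and is not called wild type. The Cre driver changes together with the VF label, so the driver and the allele cannot be told apart in VF. Nothing in the labels says whether replicates came from separate animals, so p-values measure the spread between these libraries only. Both lines were compared with the same 3 KI libraries, so anything particular to those 3 libraries enters both lines alike and cannot be told apart from a change in VF and E12.

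JAK2 is the kinase that sits on the receptors for erythropoietin, thrombopoietin and related cytokines and passes their signal to STAT transcription factors. Activating changes in it drive myeloproliferative neoplasms, diseases in which stem cells feed an excess of red cells, platelets or granulocytes. Immediate-early genes, which code for AP-1 and Egr factors, zinc finger factors and feedback inhibitors, are switched on within minutes by growth factors and stress, and they are prominent in resting blood stem cells. Globin genes are the end products of the red cell programme, and stem cells hold only small amounts of their RNA.

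The libraries held 21628391 to 22269251 counts in VF, 24075342 to 29413242 in E12 and 12798410 to 16715607 in KI. Levels are CPM, counts divided by these totals and set to a common scale, after TMM scaling, a correction for differences in RNA composition. The summed level of 8 genes that mark LTHSC (Procr, Slamf1, Kit, Ly6a, Mecom, Hlf, Fgd5 and Hoxb5) was 1700 to 1823 CPM in VF, 749 to 1843 CPM in E12 and 1489 to 1605 CPM in KI. Replicate 4 of E12 stood apart. It held the lowest of these sums, and 26 neutrophil and monocyte markers summed to 35120 CPM in it, against 1083 to 4659 CPM in the other 8 libraries. Mpo, the neutrophil granule peroxidase, was at 19650 CPM there and at 44.0 to 427 CPM elsewhere. Mast, basophil and eosinophil markers summed to 1392 CPM there against 10.9 to 56.5 CPM elsewhere, and lymphoid markers to 2525 CPM against 165 to 356 CPM. Kit made up 414 CPM of its sum of LTHSC genes. Each of those 8 genes except Ly6a was lowest in that library, Mecom at 6.56 CPM against 88.3 to 150 CPM elsewhere. The counts of shared genes are therefore given with and without that library. Replicate 11 of E12 also lay away from the rest on the second principal component (-53.7, against -0.307 to 24.6), and a single gene took 5.04% of its counts. Xist was at 507 CPM in VF 2 and at most 12.4 CPM in the others, while 4 Y-linked genes summed to 85.5 to 247 CPM in all 9.

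With all 9 libraries, 31 of 14152 genes tested moved the same way in both lines (0.219%), 9 of them higher (0.0636%) and 22 lower (0.155%). A gene counted as shared when the edgeR quasi-likelihood F test of the averaged contrast gave a Benjamini-Hochberg adjusted p under 0.05 and the fitted change had the same sign in VF and in E12. The lower group was made up largely of immediate-early genes, among them Egr1, Fosb, Junb, Jund, Klf2, Klf4, Nr4a1, Dusp1, Zfp36 and Ppp1r15a. The higher group held 4 globin entries, the red cell membrane genes Mfsd2b and Aqp1, the cell cycle factor E2f8, and the low-level genes Gpc3 and C4b. In a bulk library, fewer cells of a type and less RNA per cell cannot be told apart. A further gene, Echdc2, passed the averaged test with opposite signs, at 4.92 ± 1.08 CPM in VF and 389 ± 70.1 CPM in E12, against 262 ± 38.9 CPM in KI (SD, n = 3 each).

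The test on the average asks less than a test in each line. Of the 31 genes, 16 passed in neither line tested alone, 9 passed in VF alone, 5 in E12 alone and 1, Myl10, in both. Over all genes tested, VF alone called 3 higher (0.0212%) and 10 lower (0.0707%), and E12 alone 5 higher (0.0353%) and 1 lower (0.00707%). When a gene was called by the larger of its p-values in the 2 lines, 0 genes passed with edgeR, the smallest adjusted p being 0.171 for Egr1. At an unadjusted p under 0.05 in both lines with the same sign, 475 genes passed with edgeR, the 31 included. By the same stricter rule DESeq2 called 64 genes and limma voom 3. The fitted change was at least 2-fold in each line for 30 of the 31 genes. For the 306 genes shared without E12 4, described further on, these counts were 103 in neither line, 186 in VF alone, 7 in E12 alone and 10 in both, and 125 reached 2-fold in each line.

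**Figure D1:**
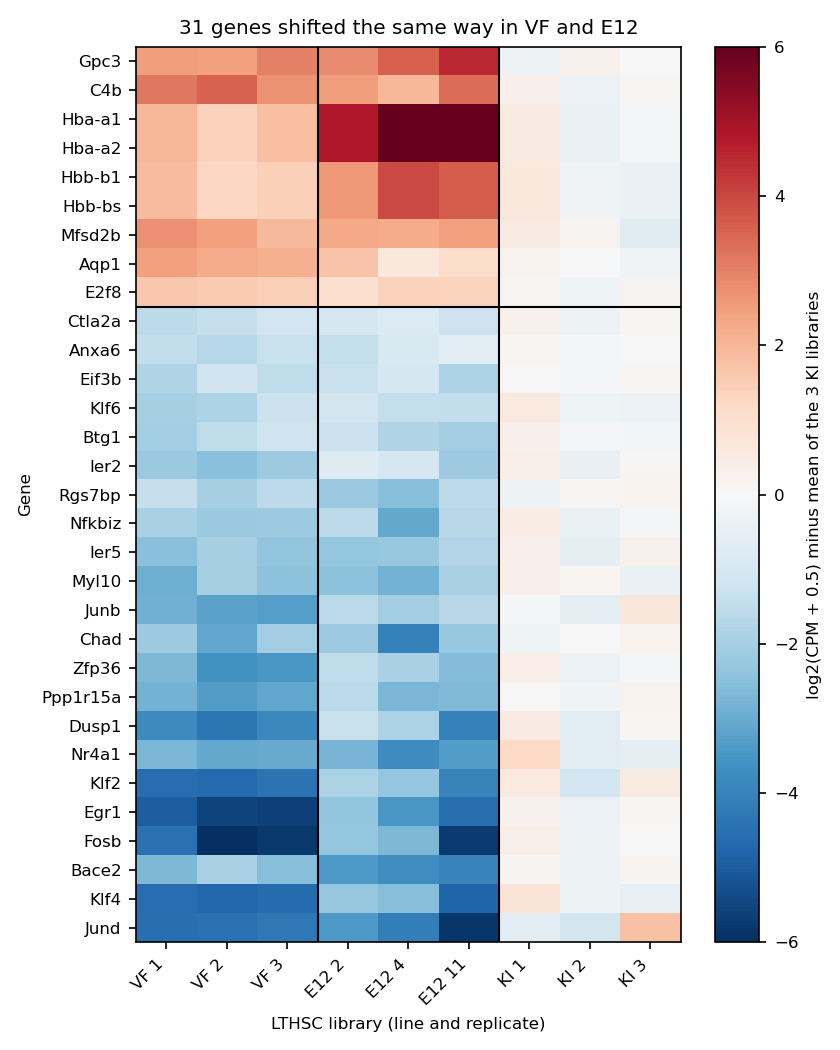
Each row is 1 of the 31 shared genes and each column an LTHSC library; colour gives log2(CPM + 0.5) minus the mean of the 3 KI libraries, so red is above and blue below KI. The 22 lower genes are blue in all VF and E12 libraries, and the 4 globin entries are darkest in E12.

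The promoters of these genes were read from RefSeq (GRCm38.p6, the assembly behind mm10), from 250 bases before to 50 after the first start listed for each gene. For Nr4a1 that start lies inside the gene, which spans chr15:101253902-101274795. An entry was found for 17 of the 22 lower genes and 7 of the 9 higher ones. The core TGACG of the cAMP response element, read on both strands, lay in 10 of the 17 lower promoters (58.8%), in 31.1% of the promoters of all genes tested and in 21.0% of all RefSeq promoters. It lay in 0 of the 7 higher promoters. In the larger set shared without E12 4 it lay in 51 of 133 lower promoters (38.3%) and 22 of 112 higher ones (19.6%). The CArG box, the serum response factor motif, lay in 1 of 17, that of Zfp36, against 1.33% of genes tested. These are matches of letters and not binding sites. The following 5 sequences are shown for the lower genes. They hold that core more than once (Nr4a1, Dusp1, Ppp1r15a) or belong to genes that passed in every setting of the averaged test (Ppp1r15a, Junb, Zfp36). Egr1 also passed in every setting, but its promoter is not shown here. Capitals mark the core, its reverse complement CGTCA or, in Zfp36, the CArG box.
Nr4a1, chr15:101266596-101266895, plus strand: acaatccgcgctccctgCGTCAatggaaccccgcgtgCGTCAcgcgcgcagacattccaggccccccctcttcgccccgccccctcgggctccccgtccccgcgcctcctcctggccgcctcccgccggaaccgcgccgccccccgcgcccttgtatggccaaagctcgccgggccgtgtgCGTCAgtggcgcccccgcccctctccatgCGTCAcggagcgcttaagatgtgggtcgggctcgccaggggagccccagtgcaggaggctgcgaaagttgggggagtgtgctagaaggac
Dusp1, chr17:26508423-26508722, minus strand: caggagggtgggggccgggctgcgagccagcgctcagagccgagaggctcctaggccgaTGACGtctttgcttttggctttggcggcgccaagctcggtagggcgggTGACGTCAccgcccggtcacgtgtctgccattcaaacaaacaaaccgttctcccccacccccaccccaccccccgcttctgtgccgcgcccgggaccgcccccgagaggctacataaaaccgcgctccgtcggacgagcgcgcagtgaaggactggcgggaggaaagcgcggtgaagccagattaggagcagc
Ppp1r15a, chr7:45526219-45526518, minus strand: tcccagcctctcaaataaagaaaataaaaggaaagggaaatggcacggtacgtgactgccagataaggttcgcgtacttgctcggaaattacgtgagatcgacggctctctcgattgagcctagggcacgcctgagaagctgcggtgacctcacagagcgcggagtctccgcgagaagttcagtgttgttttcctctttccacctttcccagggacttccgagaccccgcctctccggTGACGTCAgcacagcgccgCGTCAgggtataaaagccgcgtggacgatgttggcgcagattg
Junb, chr8:84978699-84978998, minus strand: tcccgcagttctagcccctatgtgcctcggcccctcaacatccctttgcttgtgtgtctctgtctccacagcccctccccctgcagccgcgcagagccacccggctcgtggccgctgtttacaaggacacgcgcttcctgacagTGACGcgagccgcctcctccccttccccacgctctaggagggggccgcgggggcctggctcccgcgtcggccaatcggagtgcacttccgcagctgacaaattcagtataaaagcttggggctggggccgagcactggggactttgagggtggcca
Zfp36, chr7:28379179-28379478, minus strand: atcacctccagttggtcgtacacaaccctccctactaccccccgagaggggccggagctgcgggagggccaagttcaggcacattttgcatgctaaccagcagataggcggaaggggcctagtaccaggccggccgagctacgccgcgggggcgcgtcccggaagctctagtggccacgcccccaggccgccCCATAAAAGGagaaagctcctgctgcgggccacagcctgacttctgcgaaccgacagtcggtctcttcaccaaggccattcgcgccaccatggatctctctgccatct
In Dusp1 and Ppp1r15a the core and its reverse complement overlap in the full palindrome TGACGTCA, while Nr4a1 holds the reverse complement 4 times and no palindrome. Ppp1r15a also holds AGATAA once, unmarked here.

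For the higher genes, the motif CACCC, bound by Klf factors in globin promoters, lay in 6 of 7 promoters (85.7%), against 62.6% of the promoters of genes tested and 7 of the 17 lower promoters (41.2%). Hba-a1 and Hba-a2 are both among the 6, although their promoters hold the same sequence, as given below. Without E12 4 it lay in 75 of 112 higher promoters (67.0%), near the share of all genes, and in 89 of 133 lower ones (66.9%). For the GATA motif only the form AGATAA was searched. It lay in 1 of 7 higher promoters (14.3%) and 3 of 17 lower ones (17.6%), against 6.73% of genes tested. Without E12 4 it lay in 7 of 112 higher promoters (6.25%) and 13 of 133 lower ones (9.77%). Matches of either motif are in capitals in the 3 sequences that follow, which belong to the alpha globin, the beta globin and the lipid transporter gene of the higher group. Of these only Hbb-bs holds AGATAA, while in Hba-a1 and Mfsd2b the capitals are CACCC alone. Hba-a1 does hold TGATAA, another form of the GATA motif, which was not searched and is unmarked.
Hba-a1, chr11:32283422-32283721, plus strand: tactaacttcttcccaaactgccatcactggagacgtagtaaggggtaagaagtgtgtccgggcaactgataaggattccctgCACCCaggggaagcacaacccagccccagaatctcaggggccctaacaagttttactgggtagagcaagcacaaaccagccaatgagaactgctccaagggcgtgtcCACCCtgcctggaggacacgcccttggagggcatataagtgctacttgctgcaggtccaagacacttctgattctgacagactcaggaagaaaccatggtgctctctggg
Hbb-bs, chr7:103827879-103828178, minus strand: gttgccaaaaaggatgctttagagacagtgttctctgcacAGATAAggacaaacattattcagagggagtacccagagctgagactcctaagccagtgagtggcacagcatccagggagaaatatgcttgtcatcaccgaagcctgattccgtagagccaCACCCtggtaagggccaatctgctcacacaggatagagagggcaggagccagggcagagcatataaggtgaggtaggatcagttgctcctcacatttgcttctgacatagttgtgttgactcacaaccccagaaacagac
Mfsd2b, chr12:4874310-4874609, minus strand: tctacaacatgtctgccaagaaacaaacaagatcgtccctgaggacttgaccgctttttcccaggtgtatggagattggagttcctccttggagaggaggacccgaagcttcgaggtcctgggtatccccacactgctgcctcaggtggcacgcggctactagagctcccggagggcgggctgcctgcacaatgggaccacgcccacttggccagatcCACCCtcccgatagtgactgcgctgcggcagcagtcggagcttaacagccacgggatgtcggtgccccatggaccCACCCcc
The promoter of Hba-a2 is identical to that of Hba-a1 at 297 of 297 bases once shifted by 3, and the transcripts of the pair are near copies too.

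Egr1, a zinc finger factor of the immediate-early class (chr18:34861207-34864956), showed the smallest adjusted p among the shared genes. Its levels were 73.5, 47.5 and 47.0 CPM in VF 1 to 3 and 435, 201 and 99.96 CPM in E12 2, 4 and 11, against 2715, 1760 and 2485 CPM in KI 1 to 3. The highest E12 library stayed far below the lowest KI library. The log2 fold change of the averaged contrast was -4.31 ± 0.39 (SE, edgeR adjusted p = 0.00297), made of -5.37 ± 0.54 in VF and -3.24 ± 0.49 in E12.

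Of the AP-1 factors, dimers of Fos and Jun proteins, Fosb, Junb and Jund fell with it. Junb was at 85.8, 68.9 and 64.6 CPM in VF and at 211, 152 and 199.98 CPM in E12, against 606, 432 and 1019 CPM in KI, a log2 fold change of -2.55 ± 0.26 (edgeR adjusted p = 0.00438). No library of either line reached the lowest KI library. Fosb was at 7.49, 1.39 and 2.75 CPM in VF and at 34.8, 26.7 and 2.85 CPM in E12, against 228, 144 and 173 CPM in KI, a log2 fold change of -4.31 ± 0.65 (edgeR adjusted p = 0.0324). Within E12, replicate 11 sat at the VF level for Fosb and replicates 2 and 4 above every VF library. Jund was at 4.36, 4.55 and 5.19 CPM in VF and at 9.89, 5.95 and 1.48 CPM in E12, against 70.8, 51.8 and 386 CPM in KI, a log2 fold change of -5.02 ± 0.67 (edgeR adjusted p = 0.0176). The KI libraries disagree here, replicate 3 lying well above the other two, yet all 3 exceed every VF and E12 library.

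Fos and Jun, the best known pair of the class, did not pass. Fos was at 103, 11.5 and 24.5 CPM in VF and at 812, 745 and 69.1 CPM in E12, against 2591, 1065 and 1493 CPM in KI (log2 fold change -3.44 ± 0.74, edgeR adjusted p = 0.117). Its libraries do not overlap KI, but E12 2 and 4 lie near the lowest KI library while E12 11 lies among the VF libraries. Fosl2, a further Fos relative, did not pass either, with fitted changes of 0.68 in VF and -0.76 in E12. Jun was at 172, 46.7 and 51.3 CPM in VF and at 614, 461 and 19.6 CPM in E12, against 962, 675 and 951 CPM in KI (log2 fold change -2.25, edgeR adjusted p = 0.315).

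The Krüppel-like factors Klf2 and Klf4, zinc finger regulators tied to quiescence in several cell types, were almost silent in VF. Klf2 was at 0.556, 0.520 and 0.698 CPM in VF and at 6.36, 4.63 and 1.10 CPM in E12, against 38.4, 11.0 and 36.5 CPM in KI, a log2 fold change of -4.21 ± 0.53 (edgeR adjusted p = 0.0128). Klf4 was at 0.257, 0.173 and 0.218 CPM in VF and at 3.22, 2.53 and 0.137 CPM in E12, against 30.2, 13.8 and 12.3 CPM in KI, a log2 fold change of -4.83 ± 0.71 (edgeR adjusted p = 0.0303). For both genes the E12 libraries 2 and 4 lay between VF and KI. Klf6, a broadly expressed relative, averaged 101 ± 28.1 CPM in VF and 129 ± 18.9 CPM in E12, against 343 ± 135 CPM in KI (SD, n = 3 each; log2 fold change -1.59, edgeR adjusted p = 0.0386).

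Nr4a1, an orphan nuclear receptor, behaved alike in both lines. It was at 14.4, 11.3 and 11.5 CPM in VF and at 13.6, 6.67 and 9.14 CPM in E12, against 228, 63.2 and 64.8 CPM in KI, a log2 fold change of -3.43 ± 0.41 (edgeR adjusted p = 0.00777). The fitted changes were -3.26 ± 0.52 in VF and -3.60 ± 0.53 in E12, and the difference between the lines, 0.34 ± 0.49, did not pass (edgeR adjusted p = 0.758). Ier5, an immediate-early regulator of the heat shock response, shared that evenness. It was at 8.43, 12.0 and 9.38 CPM in VF and at 9.50, 9.86 and 14.2 CPM in E12, against 60.9, 33.8 and 59.5 CPM in KI, a log2 fold change of -2.29 ± 0.26 (edgeR adjusted p = 0.00606).

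The phosphatase Dusp1, the phosphatase subunit Ppp1r15a, the RNA decay factor Zfp36 and the NF-kB inhibitor Nfkbiz were lower as well, while the related Dusp2, Dusp5, Dusp6, Socs3 and Zfp36l1 did not pass with all 9 libraries. Dusp1, the phosphatase that switches off MAP kinases, was at 93.6, 66.3 and 91.2 CPM in VF and at 536, 362 and 80.8 CPM in E12, against 1921, 878 and 1448 CPM in KI, a log2 fold change of -3.10 ± 0.45 (edgeR adjusted p = 0.0303). E12 11 again lay with VF. Ppp1r15a, the regulatory subunit that lets protein phosphatase 1 reverse the integrated stress response, was at 133, 94.8 and 112 CPM in VF and at 319, 143 and 154 CPM in E12, against 960.0, 846 and 1116 CPM in KI, a log2 fold change of -2.67 ± 0.27 (edgeR adjusted p = 0.00438). Zfp36, which binds AU-rich elements and speeds the decay of cytokine mRNA, was at 56.2, 29.6 and 32.2 CPM in VF and at 127, 94.7 and 60.7 CPM in E12, against 491, 293 and 345 CPM in KI, a log2 fold change of -2.63 ± 0.29 (edgeR adjusted p = 0.00457). For both Ppp1r15a and Zfp36 the 3 KI libraries stand clear of the other 6. Nfkbiz, a nuclear inhibitor of the NF-kB family, averaged 21.1 ± 2.21 CPM in VF and 23.6 ± 11.2 CPM in E12, against 96.4 ± 29.9 CPM in KI (SD, n = 3 each; log2 fold change -2.11, edgeR adjusted p = 0.0324).

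**Figure D2:**
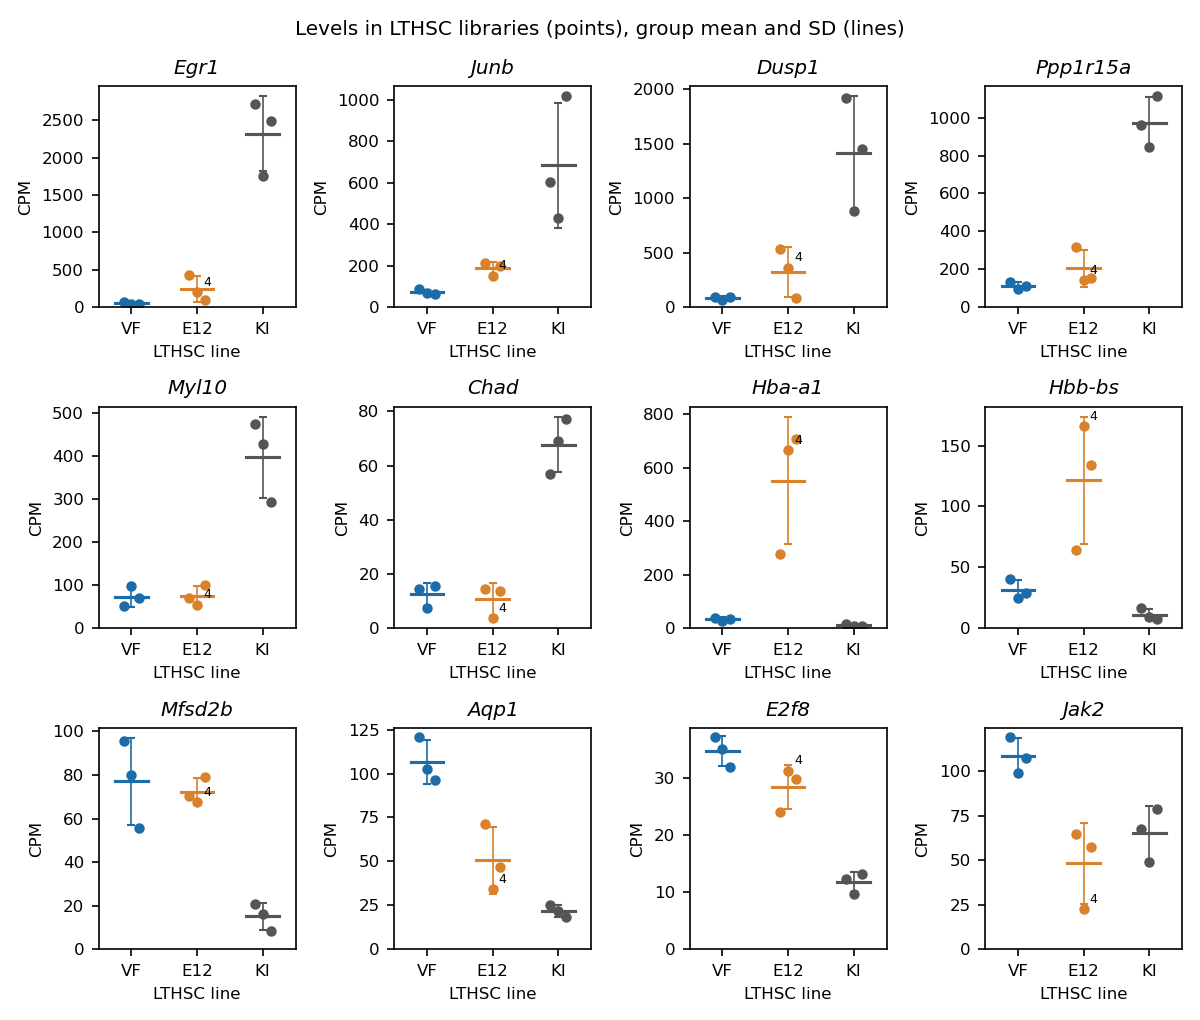
Points are TMM-scaled CPM of single LTHSC libraries for 12 genes, wide lines the mean of 3 libraries and error bars the SD; a small 4 marks replicate 4 of E12. Egr1, Junb, Dusp1, Ppp1r15a, Myl10 and Chad sit low in VF and E12, the 5 erythroid and cell cycle genes sit low in KI, and Jak2 overlaps.

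The remaining lower genes have no common role. Myl10, a myosin regulatory light chain (chr5:136688892-136701857), was at 51.0, 97.3 and 70.7 CPM in VF and at 69.2, 54.2 and 99.4 CPM in E12, against 473, 427 and 292 CPM in KI, a log2 fold change of -2.43 ± 0.26 (edgeR adjusted p = 0.00457). Its change was -2.44 in VF and -2.42 in E12, and both passed alone (edgeR adjusted p = 0.0304 and 0.0495). Chad, a leucine-rich matrix protein first known from cartilage (chr11:94565047-94569127), was at 14.3, 7.41 and 15.5 CPM in VF and at 14.4, 3.64 and 13.6 CPM in E12, against 56.8, 69.1 and 77.1 CPM in KI, a log2 fold change of -2.56 ± 0.39 (edgeR adjusted p = 0.0332). For Chad and Myl10 the VF and E12 libraries intermingle, all below KI. Rgs7bp, which anchors G protein regulators of the RGS7 family at membranes, averaged 15.5 ± 3.27 CPM in VF and 11.4 ± 4.22 CPM in E12, against 49.5 ± 8.73 CPM in KI (SD, n = 3 each; log2 fold change -1.89, edgeR adjusted p = 0.0260).

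The other members fell outside the rule for genes to be named and are given to complete the 31, after their values were seen. Btg1, an antiproliferative cofactor, had a log2 fold change of -1.63. Ier2, an immediate-early nuclear protein, had one of -1.79, Eif3b, a subunit of a translation initiation factor, one of -1.43, Anxa6, a calcium-dependent membrane binder, one of -1.23, and Ctla2a, a relative of cysteine protease propeptides, one of -1.21. Each of these 5 had an edgeR adjusted p of 0.0324 to 0.0433. Bace2, a membrane aspartyl protease, was scarce throughout, at 0.727 to 1.56 CPM in VF and 0 to 0.233 CPM in E12, against 5.93 to 8.59 CPM in KI; the 0 is E12 11, where a count of 0 allows up to 0.103 CPM.

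Alpha globin rose in the averaged contrast, with a far larger change in E12 than in VF. Hba-a1 was at 38.9, 25 and 34.0 CPM in VF and at 278, 665 and 707 CPM in E12, against 13.7, 7.09 and 8.50 CPM in KI. The lowest VF library lay above the highest KI library and the lowest E12 library well above all VF libraries. The log2 fold change was 3.78 ± 0.40 (edgeR adjusted p = 0.00438), made of 1.74 ± 0.39 in VF, which did not pass alone (edgeR adjusted p = 0.200), and 5.82 ± 0.46 in E12. The difference between the lines, -4.08 ± 0.42 as VF minus E12, passed (edgeR adjusted p = 0.00701), and Hba-a2 gave the same values to within rounding. Hba-a1 and Hba-a2 are the only 2 of the 31 genes whose changes differed between the lines by this test, which called 1 gene higher (0.00707%) and 4 lower (0.0283%) in VF than in E12 over all genes.

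Beta globin followed. Hbb-bs was at 40.3, 25 and 29.0 CPM in VF and at 64.3, 166 and 134 CPM in E12, against 16.1, 8.83 and 7.67 CPM in KI, a log2 fold change of 2.51 ± 0.39 (edgeR adjusted p = 0.0359). The entry Hbb-b1 carries almost the same counts, so the 4 globin entries amount to 1 alpha and 1 beta signal. Markers of mature red cells do not move alike in both lines: 7 of them summed to 21.1 to 34.6 CPM in VF and 47.2 to 83.6 CPM in E12, against 22.4 to 45.8 CPM in KI. None of the 7 was shared, and their part in the globin result was not tested.

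Mfsd2b, the exporter of sphingosine-1-phosphate in red cells and platelets, rose by the same amount in both lines. It was at 95.5, 80.1 and 55.8 CPM in VF and at 70.3, 67.4 and 79.2 CPM in E12, against 20.9, 15.9 and 8.18 CPM in KI, a log2 fold change of 2.32 ± 0.33 (edgeR adjusted p = 0.0260). The fitted changes were 2.36 in VF and 2.27 in E12. Aqp1, the water channel of the red cell membrane (chr6:55336299-55348555), was at 121, 103 and 96.5 CPM in VF and at 71.3, 34.0 and 46.5 CPM in E12, against 25.2, 21.4 and 18.5 CPM in KI, a log2 fold change of 1.76 ± 0.27 (edgeR adjusted p = 0.0359). VF libraries lie highest, KI libraries lowest, and E12 4 is the closest to KI. E2f8, an atypical E2F repressor that peaks in S phase (chr7:48866429-48882073), was at 37.1, 35 and 31.9 CPM in VF and at 24, 31.2 and 29.8 CPM in E12, against 12.4, 9.71 and 13.2 CPM in KI, a log2 fold change of 1.42 ± 0.24 (edgeR adjusted p = 0.0433).

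Gpc3 and C4b were near the limit of detection in KI and are named after their values were seen. Gpc3, a heparan sulphate proteoglycan of the cell surface, was at 3.94 to 6.07 CPM in VF and 5.31 to 18.1 CPM in E12, against 0.153 to 0.465 CPM in KI, where 15 counts were found in all (log2 fold change 4.46, edgeR adjusted p = 0.0260). C4b, a complement component, was at 4.63 to 8.62 CPM in VF and 2.59 to 7.45 CPM in E12, against 0.116 to 0.460 CPM in KI, from 13 counts (log2 fold change 4.22, edgeR adjusted p = 0.0386). These 2 changes are the largest of the 9 higher genes and rest on the fewest KI counts among them.

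Jak2 itself is no shared gene. It was at 119, 99.2 and 107 CPM in VF and at 64.9, 22.3 and 57.4 CPM in E12, against 67.6, 48.8 and 78.8 CPM in KI, a log2 fold change of 0.15 ± 0.31 (edgeR adjusted p = 0.901). An exact 2-sided permutation test of the 6 VF and E12 libraries against the 3 KI libraries gave p = 0.869, where the smallest possible value is 0.0119. Both tests pool lines whose fitted changes had opposite signs, 0.74 ± 0.36 in VF and -0.43 ± 0.36 in E12. Neither passed alone (edgeR adjusted p = 0.662 and 0.582), although every VF library lay above every KI library. The difference between the lines, 1.17 ± 0.37 as VF minus E12, did not pass (edgeR adjusted p = 0.441). The counts do not separate mutant from unmutated alleles.

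**Figure D3:**
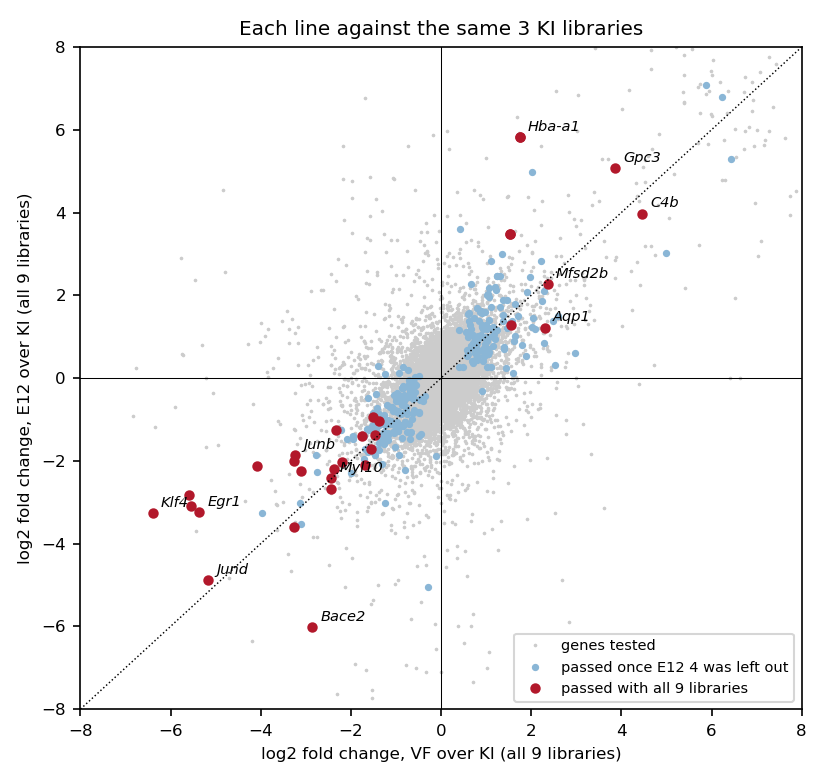
Each point is a gene; the x axis is the log2 fold change of VF over KI, the y axis that of E12 over KI, both from the fit of all 9 libraries, and the dotted line marks equality. The shared genes lie in the lower left and upper right, Hba-a1 far above the line; both axes share the 3 KI libraries, and 37 genes lie outside the axes.

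Leaving out E12 4 raised the shared set to 306 of 14457 genes tested (2.12%), 139 higher (0.961%) and 167 lower (1.16%). All 31 genes were among them. For 106 of the 139 higher genes and 129 of the 167 lower genes E12 4, which had no part in that fit, also lay beyond all 3 KI libraries on the same side. The genes were chosen against those same 3 KI libraries, and the share of all genes for which E12 4 does so was not counted. The position of E12 4 therefore does not test them. The counts of 139 and 167 depend on single libraries: leaving out 1 more library gave between 7 and 461 higher genes and between 13 and 863 lower ones, the smallest without VF 2 and the largest without E12 2, and each of the 8 libraries moved at least 1 of the counts by over 1.5 times. With all 9 libraries, leaving out KI 3 left 0 higher and 6 lower genes, VF 2 left 2 and 6, VF 3 left 2 and 6, VF 1 left 2 and 7, KI 1 left 2 and 7, KI 2 left 2 and 10, and E12 2 raised them to 23 and 67. Egr1, Junb, Ppp1r15a and Zfp36 passed in all 16 settings of the averaged test, and Hba-a1, Hba-a2 and Myl10 in 15. Of the 31 genes, 21 passed in 10 settings or fewer, and Hbb-bs, Hbb-b1, E2f8, Klf6, Anxa6 and Ctla2a in 7. In the following paragraphs log2 fold changes come from the fit without E12 4, and CPM, E12 4 included, are on the scale of all 9 libraries.

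The immediate-early list counted 13 of 32 members lower and 0 higher with all 9 libraries, and 15 lower without E12 4, where 0.155% and 1.16% of all genes tested were lower. Its median log2 fold change was -2.27, against 0.012 for all genes tested. In 31 of 32 members both lines had a negative fitted change, as in 30.8% of all genes tested, and for 23 of 32 all VF and E12 libraries lay below all KI libraries, where 4.71% of all genes do. Without E12 4 that number was again 23, against 7.33% of all genes. This list was chosen with earlier results of these data known, so the count describes it and does not test it. The 2 added without E12 4 were Btg2, an antiproliferative p53 target (log2 fold change -2.48 ± 0.40, edgeR adjusted p = 0.0245), and Dusp5, a nuclear ERK phosphatase (-1.85 ± 0.33, edgeR adjusted p = 0.0319). Egr2, Egr3, Atf3 and Nr4a3 were at most 0.931 CPM in any VF or E12 library except Atf3 in E12 2, at 1.05 CPM, and none of them passed.

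Malat1 and the total counts also set KI apart. The summed level of the immediate-early list was 977 to 1325 CPM in VF and 1337 to 4148 CPM in E12, against 7658 to 13400 CPM in KI. Malat1, a nuclear RNA, was at 1455 to 2192 CPM in VF and 1939 to 3317 CPM in E12, against 3565 to 4929 CPM in KI, and it passed as lower without E12 4 (log2 fold change -0.84 ± 0.17, edgeR adjusted p = 0.0388). The other 5 RNA quality genes listed with Malat1 overlapped between the groups, summing to 897 to 1029 CPM in VF and 940.0 to 1178 CPM in E12, against 978 to 1245 CPM in KI. KI also had the smallest total counts, and after every library was thinned to the smallest total 13 genes were higher and 28 lower. The part of these readings in the immediate-early result was not tested.

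**Figure D4:**
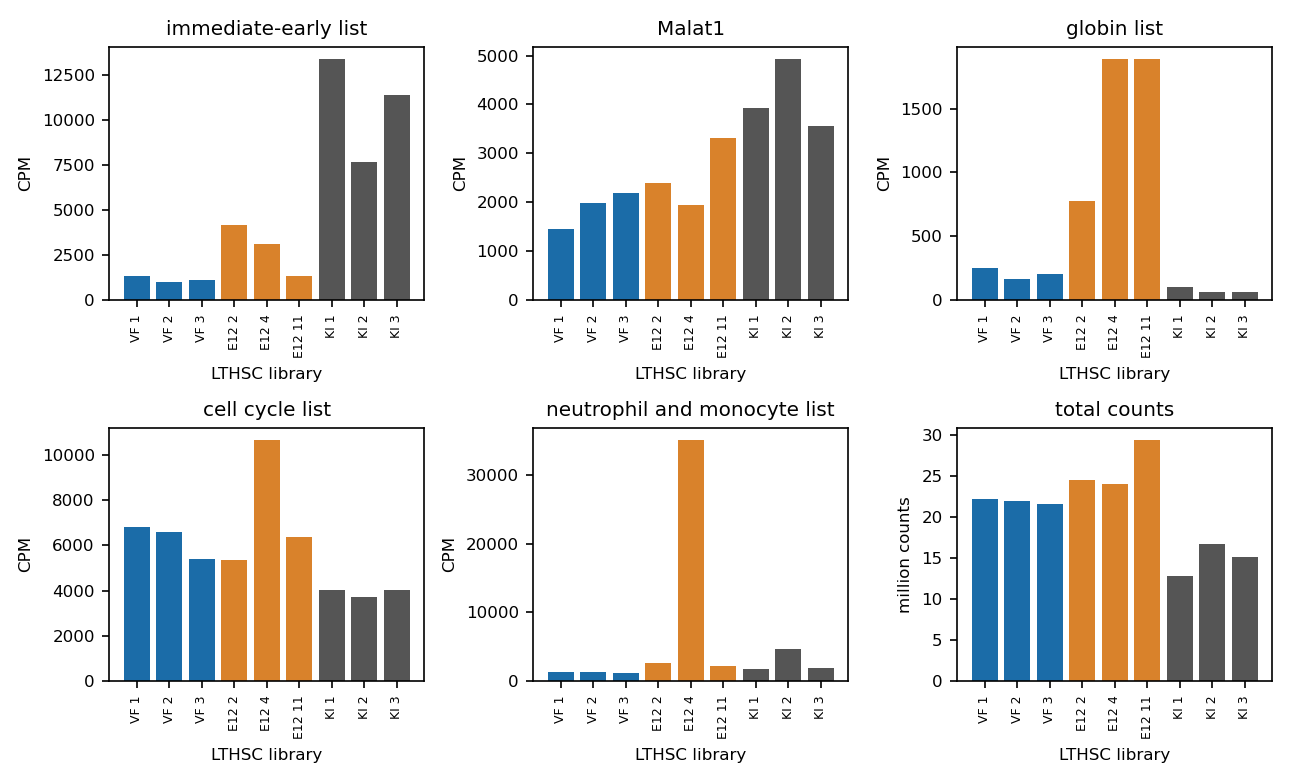
Bars give, for each LTHSC library, the TMM-scaled CPM summed over a gene list, the CPM of Malat1, or the total count. The immediate-early sum is highest in the 3 KI libraries, as is Malat1, while total counts are lowest there; the neutrophil and monocyte sum singles out E12 4.

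Red cell genes rose in part. Of 6 measured globin entries 4 were higher with all 9 libraries and 6 without E12 4, the added pair being Hbb-bt and Hbb-b2, which share their counts. Of 30 erythroid genes 2 passed with all 9 libraries and 4 without E12 4, and 0 were lower in either fit. Over all genes tested 0.0636% were higher with all 9 libraries and 0.961% without E12 4. Gata1, the master transcription factor of red cells and megakaryocytes, was at 90.3, 102 and 78.0 CPM in VF and at 83.7, 198 and 78.2 CPM in E12, against 30.8, 34.3 and 32.8 CPM in KI. The KI libraries lie close together and no other library comes near them. Its log2 fold change was 1.39 ± 0.14 without E12 4 (edgeR adjusted p = 0.00306) and missed the threshold with it (edgeR adjusted p = 0.0753). Klf1, which switches on adult beta globin, was at 17.2, 22.2 and 19.7 CPM in VF and at 33.2, 128 and 23.2 CPM in E12, against 10.4, 7.32 and 5.37 CPM in KI (log2 fold change 1.62 ± 0.28, edgeR adjusted p = 0.0264).

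Megakaryocyte and platelet genes passed in 0 of 33 measured members with all 9 libraries and in 8 of 35 without E12 4, all 8 higher, where 0.961% of all genes were. E12 4 was the lowest of the 9 libraries for some of them. Vwf, the platelet adhesion protein that also marks platelet-biased stem cells in mice, was at 292, 187 and 203 CPM in VF and at 76.4, 6.72 and 65.1 CPM in E12, against 36.7, 43.8 and 38.4 CPM in KI. Without E12 4 its log2 fold change was 1.68 ± 0.17 (edgeR adjusted p = 0.00315), and the change was larger in VF than in E12 by 1.68 ± 0.21 (edgeR adjusted p = 0.0313). That test of VF against E12 called 7 genes higher (0.0484%) and 6 lower (0.0415%) in VF without E12 4. Itga2b, the alpha chain of the platelet fibrinogen receptor, was at 333, 258 and 190 CPM in VF and at 223, 129 and 330 CPM in E12, against 76.9, 76.5 and 110 CPM in KI (log2 fold change 1.61 ± 0.23, edgeR adjusted p = 0.0161). Here E12 4 too lay above KI. Pf4, a platelet chemokine, was at 172, 120 and 104 CPM in VF and at 90.6, 51.0 and 44.3 CPM in E12, against 32.0, 17.2 and 16.7 CPM in KI (log2 fold change 2.11 ± 0.33, edgeR adjusted p = 0.0228). Selp, Cavin2, Gp9 and F13a1 complete the 8 with Gata1. Their log2 fold changes were 1.51 for Selp, 1.5 for Cavin2, 0.90 for Gp9 and 2.91 for F13a1, with edgeR adjusted p of 0.0405 to 0.0475.

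Cell cycle genes leaned higher as a list. With all 9 libraries only E2f8 of 50 members passed, but both lines had a positive change in 48 of 50, as in 32.2% of all genes tested, and for 32 of 50 all VF and E12 libraries lay above all KI libraries, where 4.19% of all genes do. The median log2 fold change of the list was 0.88. Without E12 4, 15 of 50 were higher and 0 lower, with a median of 0.64, and 34 of 50 did not overlap KI, against 6.78% of all genes. Kif11, a spindle motor, was at 110, 91.3 and 75.4 CPM in VF and at 62.8, 53.6 and 59.7 CPM in E12, against 37.1, 32.0 and 36.4 CPM in KI (log2 fold change 1.10 ± 0.16, edgeR adjusted p = 0.0161). Uhrf1, which guides the copying of DNA methylation, had a log2 fold change of 1.15 ± 0.19 (edgeR adjusted p = 0.0245), Mybl2, a cell cycle transcription factor, one of 1.49 ± 0.27 (edgeR adjusted p = 0.0332), and Bub1b, a spindle checkpoint kinase, one of 0.97 ± 0.17 (edgeR adjusted p = 0.0264). The summed level of the list was 5406 to 6831 CPM in VF and 5350 to 10670 CPM in E12, against 3713 to 4026 CPM in KI, with E12 4 the highest.

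Interferon response genes passed in 0 of 58 with all 9 libraries and in 8 of 58 without E12 4, all higher, where 0.961% of all genes were. Among them, the guanylate-binding and immunity-related GTPases Gbp6, Irgm2, Igtp and Ifi47 had log2 fold changes of 1.57, 0.86, 0.85 and 0.69, and Irf1, Tap1 and Psmb9, which serve antigen presentation or its control, of 0.83, 0.73 and 0.61.

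Few or no members passed in the other lists. Over all genes tested 0.0636% were higher and 0.155% lower with all 9 libraries. Without E12 4 these shares were 0.961% and 1.16%. Of 34 stem cell genes 0 passed with all 9 libraries, and Slamf1, the sorting marker CD150, passed as higher without E12 4 (log2 fold change 1.05 ± 0.19, edgeR adjusted p = 0.0302). Of 27 measured genes of iron uptake, storage and export 0 passed with all 9 libraries, and 0 of 28 without E12 4. Among 15 heme synthesis genes 0 passed with all 9 libraries, and without E12 4 Abcb10, a mitochondrial transporter, was higher and Cpox, coproporphyrinogen oxidase, lower. Among 25 cholesterol synthesis genes 0 passed with all 9 libraries, and Fdft1, Insig1 and Acat2 were lower without E12 4, with log2 fold changes of -1.17, -1.09 and -0.66. The median of that list was -0.67 without E12 4. Both lines were negative in 21 of 25 members, against 35.5% of all genes tested. For 12 of 25 all VF and E12 libraries of that fit lay below KI, against 7.33% of all genes. Of the JAK-STAT targets Junb, 1 of 25, was lower with all 9 libraries, and without E12 4 Irf1 was among the higher genes while Mcl1, an anti-apoptotic BCL2 relative, and Spry1, a feedback inhibitor of receptor kinases, were lower beside Junb. In the stress response list Ppp1r15a was lower with all 9 libraries, and Chac1, Dnajb9 and Herpud1 joined it without E12 4. The NF-kB list had 1 lower gene of 24, Nfkbiz, and the heat shock list 0 of 14, in both fits. The heat shock median was 0.55 with all 9 libraries, and 11 of 14 members were positive in both lines, against 32.2% of all genes tested.

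**Figure D5:**
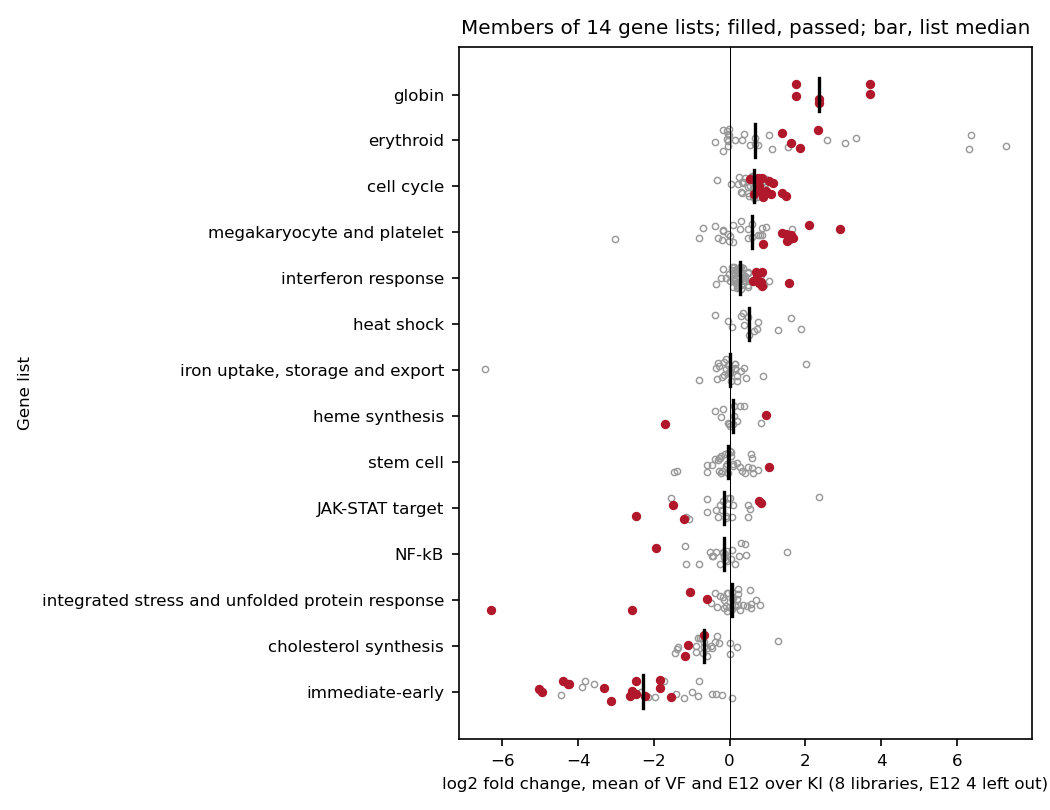
Each point is a measured member of 1 of 14 gene lists, placed by its log2 fold change, the average of VF and E12 over KI without E12 4; filled points passed and black bars are list medians. The immediate-early list has a median of -2.30 and the globin list one of 2.37, with the cell cycle, megakaryocyte and interferon lists to the right of 0.

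Among markers of other cells, shared changes appeared only without E12 4. With all 9 libraries 0 passed among 26 neutrophil and monocyte, 13 mast, basophil and eosinophil, 10 lymphoid and 11 stroma and endothelium genes measured. Without E12 4, Nkg7 was higher in the lymphoid list (1 of 10, 10%) and Sparc and Cxcl12 in the stroma and endothelium list (2 of 12, 16.7%). Over all genes tested 0.961% were higher in that fit. Sparc, a matrix glycoprotein, was at 1.5 to 2.34 CPM in VF and 1.6 to 5.39 CPM in E12, against 0 to 0.0581 CPM in KI. Cxcl12, the niche chemokine that holds stem cells in marrow, was at 2.36 to 5.37 CPM in VF and 0.275 to 3.95 CPM in E12, against 0 to 0.128 CPM in KI. A count of 0 in a KI library allows up to 0.174 to 0.230 CPM. The stroma and endothelium list summed to 65.2 to 87.0 CPM in VF and 67.5 to 105 CPM in E12, against 67.4 to 90.01 CPM in KI, so the sums overlap. Emcn alone made up 31.7 to 59.5 CPM of each sum. The median log2 fold change of the list was 0.95 with all 9 libraries and 0.99 without E12 4. In each fit 7 members were positive in both lines (63.6% and 58.3%), against 32.2% and 34.9% of all genes tested. In each fit 2 members were negative in both lines (18.2% and 16.7%), against 30.8% and 35.5% of all genes tested. Col1a2, a collagen gene of the list, went opposite to Sparc and Cxcl12 without passing. It was at 0.780 to 3.62 CPM in VF and 0.165 to 4.97 CPM in E12, against 5.41 to 11.8 CPM in KI.

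Of the larger changes that appeared only in the fit without E12 4, several named by rule belong to no list. Bcam, a laminin-binding blood group protein, rose by 2.17 on the log2 scale, Serpine2, a protease inhibitor, by 1.98, Tuba8, a tubulin, by 1.97, and Fgf3, a fibroblast growth factor gene, by 1.95, with edgeR adjusted p of 0.0161 to 0.0249. Cebpb, a myeloid transcription factor that many signals induce, was lower by a log2 fold change of -3.61 (edgeR adjusted p = 0.0427), at 4.70, 9.33 and 11.4 CPM in VF and 8.25 and 0.464 CPM in E12 2 and 11, against 53.6, 28.7 and 139.9 CPM in KI on the scale of the 8 libraries. Chosen after its values were seen, Capn11 had 0 counts in the 5 VF and E12 libraries of that fit and 1.35 to 5.43 CPM in KI, and Cxcr1 and Mcub had 0 counts in all 3 KI libraries.

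The same contrast in megakaryocyte progenitors (MkP), fitted on 9 other libraries of the same lines, gives a second set of cells. It called 213 genes higher (1.59%) and 1947 lower (14.5%) of 13435 tested. These calls are fragile: KI 5 and KI 6 have TMM factors of 0.585 and 0.530 against 1.23 in KI 4, leaving out either gave 0 calls in both directions, and limma voom gave 0. Leaving out E12 2, E12 4, VF 1 or VF 2 also gave 0, while leaving out E12 5 gave 39 higher and 949 lower, VF 3 33 and 1150, and KI 4 3771 and 3628. Over all MkP genes tested, 44.9% had a positive and 44.3% a negative change in both lines, and the median averaged change was 0.0106. Of the 9 genes higher in LTHSC all 9 had a positive change in MkP and 2 passed, Mfsd2b and Aqp1. The 9 include 4 globin entries, which amount to 1 alpha and 1 beta signal, and C4b, with MkP group means of 0.183 to 0.392 CPM. Of the 22 genes lower in LTHSC 20 were measured, 17 had a negative change and 7 passed, which were Jund, Egr1, Junb, Myl10, Ier5, Rgs7bp and Ctla2a, and 0 passed in the other direction. For the set shared without E12 4 the MkP result was mixed: of 138 higher genes measured 98 had a positive change, 10 passed as higher and 8 as lower, and of 159 lower ones 120 had a negative change, 55 passed as lower and 0 as higher. Read beside the 14.5% of all MkP genes called lower, 7 of 20 describes these libraries only.

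Mfsd2b in MkP averaged 544 ± 87.8 CPM in VF and 657 ± 97.5 CPM in E12, against 293 ± 72.5 CPM in KI (SD, n = 3 each; log2 fold change 1.03, edgeR adjusted p = 0.0473). Myl10 averaged 3.12 ± 1.08 CPM in VF and 5.25 ± 3.02 CPM in E12, against 58.6 ± 37.5 CPM in KI (log2 fold change -3.85, edgeR adjusted p = 0.0153). Egr1 averaged 28.1 ± 9.74 CPM in VF and 27.6 ± 8.21 CPM in E12, against 59.3 ± 9.39 CPM in KI (log2 fold change -1.09, edgeR adjusted p = 0.0236). For these 3 genes the VF and E12 libraries of MkP do not overlap KI, as holds for 7.12% of MkP genes above KI and 4.64% below it. Nr4a1, Zfp36 and Klf6, lower in LTHSC, had MkP changes of 0.07, 0.08 and -0.08 that did not pass, and Ppp1r15a one of 0.55. Whether a change differed between LTHSC and MkP was not tested.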

How the data were processed

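The authors deposited read counts by Entrez gene ID, not normalized, from Smart-seq2 libraries after PicoPure extraction, per the labels. The submitters' processing notes list Subread 1.6.4, featureCounts and STAR 2.7.0c, with mm10 as the genome build. Which annotation and strand option were used, and how reads with several hits were treated, is not given in the sources used here, so antisense genes and near copies (the Hba and Hbb pairs) are uncertain. Rows without a symbol numbered 16 of 24454, held at most 0.013% of a library's counts and were left out. A column of gene lengths in bases was deposited too, and no sample column was left unmapped. Smart-seq2 reads carry no molecular identifiers, so a floor of 3 counts covers counting error only.

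Counts of the 9 LTHSC libraries were tested in edgeR 4.0.16 (R 4.3.3) with filterByExpr by group (minimum count 10), TMM scaling and the robust quasi-likelihood F test, 2-sided, with Benjamini-Hochberg adjustment over all genes tested and a threshold of 0.05. SE values were taken as the absolute log2 fold change over the square root of F. MkP was fitted alone in the same way. Coordinates and promoters are those of RefSeq GRCm38.p6, matched by ID for 24374 genes. Jak2 was also compared by an exact permutation test. Counts were compared in all 276 library pairs, and no pair agreed within sampling noise (lowest chi-square for each degree of freedom 19.8). The pipeline was tested on simulated data.

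Genes named are Jak2, up to 15 shared genes per direction by size of change whose VF and E12 libraries do not overlap KI and whose higher side averages at least 10 CPM, and up to 5 per list by p, in the fit of 9 libraries and in that without E12 4. The members, the 20 lists and the tests were chosen with earlier results of these data known. The alternatives tried were DESeq2 1.42.0, limma 3.58.1 with voom, RLE scaling, omission of the filter, a replicate block, a fit over all 24 libraries, the larger p of both lines and leaving out libraries. Thinning to equal depth, and for the fit without E12 4 the scaling, filter, block and further libraries left out, were added after seeing the data. The values of 1 gene are not reported here.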

Additional observations from a re-analysis of the deposited data

Results flagged for a closer look

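Hba-a1 changed differently in the 2 lines: the log2 fold change of VF minus that of E12 was -4.08 (edgeR adjusted p = 0.00701), with all 3 VF libraries at 25 to 38.9 CPM and all 3 E12 libraries at 278 to 707 CPM. Its near copy Hba-a2 gave -4.07, from the same reads in large part. Without E12 4 the values were -3.92 for Hba-a1 and -3.92 for Hba-a2 (edgeR adjusted p = 0.00686).

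In the fit without E12 4, Vwf differed by 1.68 as VF minus E12 (edgeR adjusted p = 0.0313), higher in VF. In that fit Plxdc2 differed by 1.25 (edgeR adjusted p = 0.0435). Plxdc2, a membrane protein, was lower in both lines by the sign of the fit, but its change was -0.12 in VF and -1.37 in E12, so the shared call rests on E12, at 61.6 and 48.1 CPM in E12 2 and 11.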

How the results depend on the processing

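With all 9 libraries the main counts were 9 higher and 22 lower. They were 9 and 19 with RLE scaling and 13 and 28 after thinning to equal depth, 18 and 33 with no filter on low counts, 175 and 185 with DESeq2, 3 and 19 with limma voom, 19 and 24 in a fit over all 24 libraries, and 0 and 0 by the larger p of both lines. The fit over all 24 libraries kept 5 of the 9 higher and 16 of the 22 lower genes, so the rest of its calls were other genes. Leaving out 1 library gave 0 to 139 higher and 6 to 167 lower genes, the upper ends without E12 4. Without E12 4 the counts were 139 and 167, and then 574 and 644 with DESeq2, 0 and 0 by the larger p of both lines, and 7 to 461 and 13 to 863 with 1 more library left out. With RLE scaling, no filter, limma voom and thinning these counts stayed within 1.5 times.

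The 31 genes kept their direction in the 16 settings of the averaged test. With 1 library left out, the log2 fold change of Jak2, which was not called, ranged from -0.016 without KI 2 to 0.33 without E12 4. The differences of Hba-a1 and Hba-a2 between VF and E12 remained past the threshold without E12 4.

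In MkP the counts were 213 and 1947, and 1036 higher with DESeq2, 0 and 0 with limma voom, 418 higher in the fit over all 24 libraries, 18 and 96 with KI 4 as the only KI library, where that lone library is assumed to vary like the other groups, and 0 to 3771 higher and 0 to 3628 lower with 1 library left out.

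Replicate numbers are shared between groups, but same-numbered LTHSC libraries did not deviate together (correlations of -0.0223 to 0.00838). Pairs that include MkP libraries were not checked. With so few libraries a group, these correlations cannot show whether same-numbered libraries share an animal or a batch. With the replicate block the counts were 49 and 64 with all 9 libraries, 42 and 62 without E12 4, and 0 and 4 in MkP. The cause of each of these shifts was not tested. The spread between 3 libraries a group, not counting error, limits what can be called, and genes under about 1 CPM in KI rest on few counts.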
